A study of Mus musculus with 18 samples.

Results

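RNA-seq counts of 32 genes of glycolysis and the hypoxia response were compared between epithelia of mouse embryonic mammary buds with and without stabilized β-catenin, the transcriptional effector of canonical Wnt signalling. The genes were taken from a list of names: 23 encode the glucose transporter, the enzymes, the lactate carriers and the switches of glycolysis, and 9 belong to the hypoxia response, namely 8 targets of hypoxia-inducible factor and the factor subunit Hif1a. All 32 were found among the 24376 genes of the table, and all 32 passed the filter on low counts that left 17269 genes for testing. The stabilized embryos were Krt14Cre/wt; Ctnn1bflox3/wt, in the labels' spelling: they carried 1 Cre allele driven by the Krt14 promoter of basal epithelium, 1 wild-type β-catenin allele and 1 allele that loses exon 3 where Cre acts. The controls were littermates, Krt14wt/wt; Ctnn1bflox3/wt, which had the same flox allele and no Cre, so an effect of Cre itself cannot be told apart from that of β-catenin. At E13.5, the bud stage, there were 4 stabilized and 4 control libraries from embryos of both sexes; at E16.5, when the primary sprout forms and branching begins, there were 5 stabilized and 5 control libraries from females, so stage and sex makeup cannot be told apart. Each library pooled buds 1 to 3 of 2 to 3 embryos of the same litter and genotype, on a mixed C57Bl/6 and NMRI background, with at least 3 litters in all. The litter of each library is not labelled, so p-values measure the spread between these pools, which may share litters.

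Glycolysis splits glucose into pyruvate in the cytoplasm. Glucose enters through transporters such as the Slc2a1 product, is trapped by hexokinase, is committed by phosphofructokinase, and yields ATP in the lower part of the pathway, after which pyruvate is burned in mitochondria or reduced to lactate and exported. When oxygen is scarce, the Hif1a protein escapes destruction and, with its partner Arnt, binds short DNA letters with the core ACGTG or GCGTG, turning on many glycolytic genes together with genes for vessel growth, pH control and the removal of mitochondria. Rapidly dividing embryonic cells use glycolysis in the presence of oxygen as well.

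Promoter windows are shown for 6 members whose values in every library are given below and whose windows differ in how often these letters occur. They were taken from RefSeq (build GRCm38.p6), run from 250 bases before to 50 bases after an annotated start, and are printed 5′ to 3′ on the gene's strand. Capitals mark each ACGTG or GCGTG on either strand; a CACGTG, the E-box read by Myc and by the carbohydrate-responsive factors, contains ACGTG and is therefore marked too.
Slc2a1 (chr4:119108495-119108794, plus strand): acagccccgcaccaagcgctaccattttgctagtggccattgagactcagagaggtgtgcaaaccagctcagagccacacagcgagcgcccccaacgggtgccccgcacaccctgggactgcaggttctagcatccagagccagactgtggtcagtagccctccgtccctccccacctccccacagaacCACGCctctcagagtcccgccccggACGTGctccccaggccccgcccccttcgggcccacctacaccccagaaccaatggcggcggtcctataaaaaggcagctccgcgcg
Hk2 (chr6:82774405-82774704, minus strand): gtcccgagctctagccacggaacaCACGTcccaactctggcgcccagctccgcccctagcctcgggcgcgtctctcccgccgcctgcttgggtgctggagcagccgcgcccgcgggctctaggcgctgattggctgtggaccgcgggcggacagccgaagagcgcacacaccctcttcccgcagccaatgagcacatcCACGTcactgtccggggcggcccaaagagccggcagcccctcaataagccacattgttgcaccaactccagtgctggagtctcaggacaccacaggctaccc
Pgk1 (chrX:106186850-106187149, plus strand): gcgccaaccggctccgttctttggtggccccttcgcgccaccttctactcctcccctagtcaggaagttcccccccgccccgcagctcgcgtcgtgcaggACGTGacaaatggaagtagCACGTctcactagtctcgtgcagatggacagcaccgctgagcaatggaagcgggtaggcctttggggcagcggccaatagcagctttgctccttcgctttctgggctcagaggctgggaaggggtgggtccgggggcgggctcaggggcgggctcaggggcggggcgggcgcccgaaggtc
Ldha (chr7:46845554-46845853, plus strand): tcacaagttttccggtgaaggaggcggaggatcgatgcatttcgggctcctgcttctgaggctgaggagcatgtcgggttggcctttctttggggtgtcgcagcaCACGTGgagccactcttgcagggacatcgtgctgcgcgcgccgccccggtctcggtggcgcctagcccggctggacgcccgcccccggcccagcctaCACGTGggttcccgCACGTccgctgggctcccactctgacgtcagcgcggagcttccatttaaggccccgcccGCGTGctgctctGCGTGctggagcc
Bnip3 (chr7:138909457-138909756, minus strand): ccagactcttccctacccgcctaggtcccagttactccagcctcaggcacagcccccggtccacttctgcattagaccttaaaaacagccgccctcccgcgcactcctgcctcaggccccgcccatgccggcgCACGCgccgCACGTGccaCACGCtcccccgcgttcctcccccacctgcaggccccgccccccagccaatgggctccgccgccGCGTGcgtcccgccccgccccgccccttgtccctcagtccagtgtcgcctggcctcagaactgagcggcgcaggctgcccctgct
Car9 (chr4:43506776-43507075, plus strand): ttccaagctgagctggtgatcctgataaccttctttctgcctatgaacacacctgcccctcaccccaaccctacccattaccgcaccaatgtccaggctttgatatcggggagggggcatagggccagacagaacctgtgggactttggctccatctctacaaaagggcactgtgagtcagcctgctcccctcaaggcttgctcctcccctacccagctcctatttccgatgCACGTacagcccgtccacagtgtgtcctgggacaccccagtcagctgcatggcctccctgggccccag
With each strand counted separately, the Ldha window shown held 7 matches and the Bnip3 window 5, against 2 each in Slc2a1, Hk2 and Pgk1 and 1 in Car9. Ldha had another window, not shown, with 2 matches. A CACGTG reads the same on both strands and so counted as 2 matches. Of the windows shown, only those of Ldha and Bnip3 held CACGTG, so their counts exceed their numbers of separate sites. Of the 32 members, 31 had at least 1 window, 45 windows in all; Ndrg1 had none. ACGTG or GCGTG on either strand occurred in 82.2% of the 45 member windows and in 43.8% of all 32851 windows of the same length. Member windows were also richer in CpG, which both cores contain, with a median of 20.0 CpG per window, against 7.0 over all windows. As 29 of the 31 members with a window held ACGTG or GCGTG, their presence could not sort the members by direction. The letters were present in 9 of the 9 members that were higher at E16.5 in stabilized epithelium. They were also present in 9 of the 10 that were lower and in 11 of the 12 with a window that did not pass. CTTTGA, the core read by the Tcf and Lef partners of β-catenin, stood in 13.3% of member windows and 16.0% of all windows. A match is a run of letters and not a measured binding site.

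The libraries held 26768810 to 27998587 counts in stabilized and 27417578 to 29310457 counts in control buds at E13.5, and 29304083 to 36082518 counts in stabilized and 27659003 to 36922108 counts in control epithelium at E16.5. Levels are given in CPM, edgeR's count relative to the TMM-scaled library total, with the SD over 4 libraries per group at E13.5 and 5 at E16.5. A log2 fold change is stabilized over control, or E16.5 over E13.5, and is followed by an approximate standard error. That error is the absolute log2 fold change divided by the square root of edgeR's F statistic. Calls are from edgeR's quasi-likelihood test with Benjamini-Hochberg adjustment over the 17269 genes, at a threshold of 0.05. Counts of Ctnnb1 cannot show the loss of exon 3; they were 2278 ± 564 CPM in stabilized epithelium and 1248 ± 111 CPM in control epithelium at E16.5 (log2 fold change 0.87 ± 0.148, edgeR adjusted p = 9.02e-05). Axin2, a direct β-catenin target, was higher in stabilized epithelium at E16.5 (log2 fold change 3.19 ± 0.170, edgeR adjusted p = 2.85e-11). At E13.5 its log2 fold change was 0.45 ± 0.174, edgeR adjusted p = 0.0976. The epithelial markers Epcam, Cdh1, Krt5, Krt14 and Trp63 were present in every group. With 5 further epithelial and mammary genes they summed to 3831 to 4675 CPM in stabilized and 5413 to 6258 CPM in control buds at E13.5, with 1 gene higher and 5 lower of 10. At E16.5 the sums were 4092 to 7491 CPM in stabilized and 2882 to 3328 CPM in control epithelium, with 4 higher and 4 lower. Their part in the results was not tested. E13.5 control library 3 and E16.5 stabilized library 1 are called here the libraries that stood apart, a choice made after seeing the data. By Dixon's gap test they were set far above their groups for 2 and 10 members. E13.5 stabilized library 1 was also far above its group for 2 members. E13.5 control library 4 was far below its group for 2 and far above it for 1. E16.5 stabilized library 1 held the highest value of its group for 25 of the 32 members. Results that rest on either library that stood apart are also given without it.

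At E13.5, most of the genes did not pass between the genotypes. Of the 32 members, 4 were higher in stabilized buds (Hk2, Pfkp, Pgam1 and Egln3) and 3 were lower (Pfkm, Pfkfb4 and Vegfa), 12.5% and 9.38%, beside a background of 14.9% of all tested genes called, 9.58% higher and 5.29% lower. The members' median log2 fold change was 0.16, against 0.01 over all tested genes. Hk2, the inducible hexokinase, and Egln3, an oxygen-sensing prolyl hydroxylase that is itself a hypoxia target, were raised, while the vessel growth factor Vegfa was reduced. The groups did not overlap for 7 of the 32 members. The share of all tested genes without overlap was not computed, so this count has no background. Without control library 3 the number higher was 7, and without stabilized library 1 Pfkm, Pfkfb4 and Vegfa no longer passed. Without stabilized library 4 the number lower was 1. In whole-epithelium RNA, fewer cells of a type and less RNA per cell cannot be told apart.

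At E16.5 more of the members were called. In stabilized epithelium 9 of the 32 members were higher and 10 were lower, 28.1% and 31.25%, beside a background of 41.7% called, 22.2% higher and 19.4% lower; the members' median log2 fold change was -0.04, against 0.10 over all tested genes. Among the 23 glycolysis members, 4 were higher (Slc2a1, Hk2, Pdk1 and Pfkfb4) and 9 were lower (Hk1, Pfkl, Aldoc, Tpi1, Pgk1, Eno1, Pkm, Slc16a1 and Pdha1), with a median of -0.17. Among the 8 hypoxia targets, 5 were higher (Vegfa, Bnip3, Egln3, Adm and P4ha1) and Car9 was lower, with a median of 0.77. The groups did not overlap for 15 of the 32 members, a count that also has no background over all tested genes. Hk2 and Egln3 were higher at both stages, Pfkfb4 and Vegfa were lower at E13.5 and higher at E16.5, and 10 members passed at neither stage. Without E16.5 stabilized library 1 the number of higher members was 5 instead of 9, as Pdk1, Vegfa, Egln3 and Adm no longer passed.

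The difference between the genotype effects at E16.5 and at E13.5 was tested as an interaction. It was positive and past the threshold for 5 members (Pdk1, Pfkfb4, Vegfa, Bnip3 and P4ha1) and negative for 7 (Pfkl, Pfkp, Pgk1, Pgam1, Eno1, Pkm and Slc16a1). These were 15.6% and 21.9% of the 32 members, beside a background of 32.2% called, 15.6% positive and 16.6% negative. By role, 2 of the 23 glycolysis members were positive and 7 negative, and of the 8 hypoxia targets 3 were positive and 0 negative. Of the 12 calls, 6 were kept under every alternative. The members' median interaction was -0.20, against 0.09 over all tested genes. Without E16.5 control library 3 the number of negative interactions was 4, and without E16.5 stabilized library 1 it was 12.

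**Figure D1:**
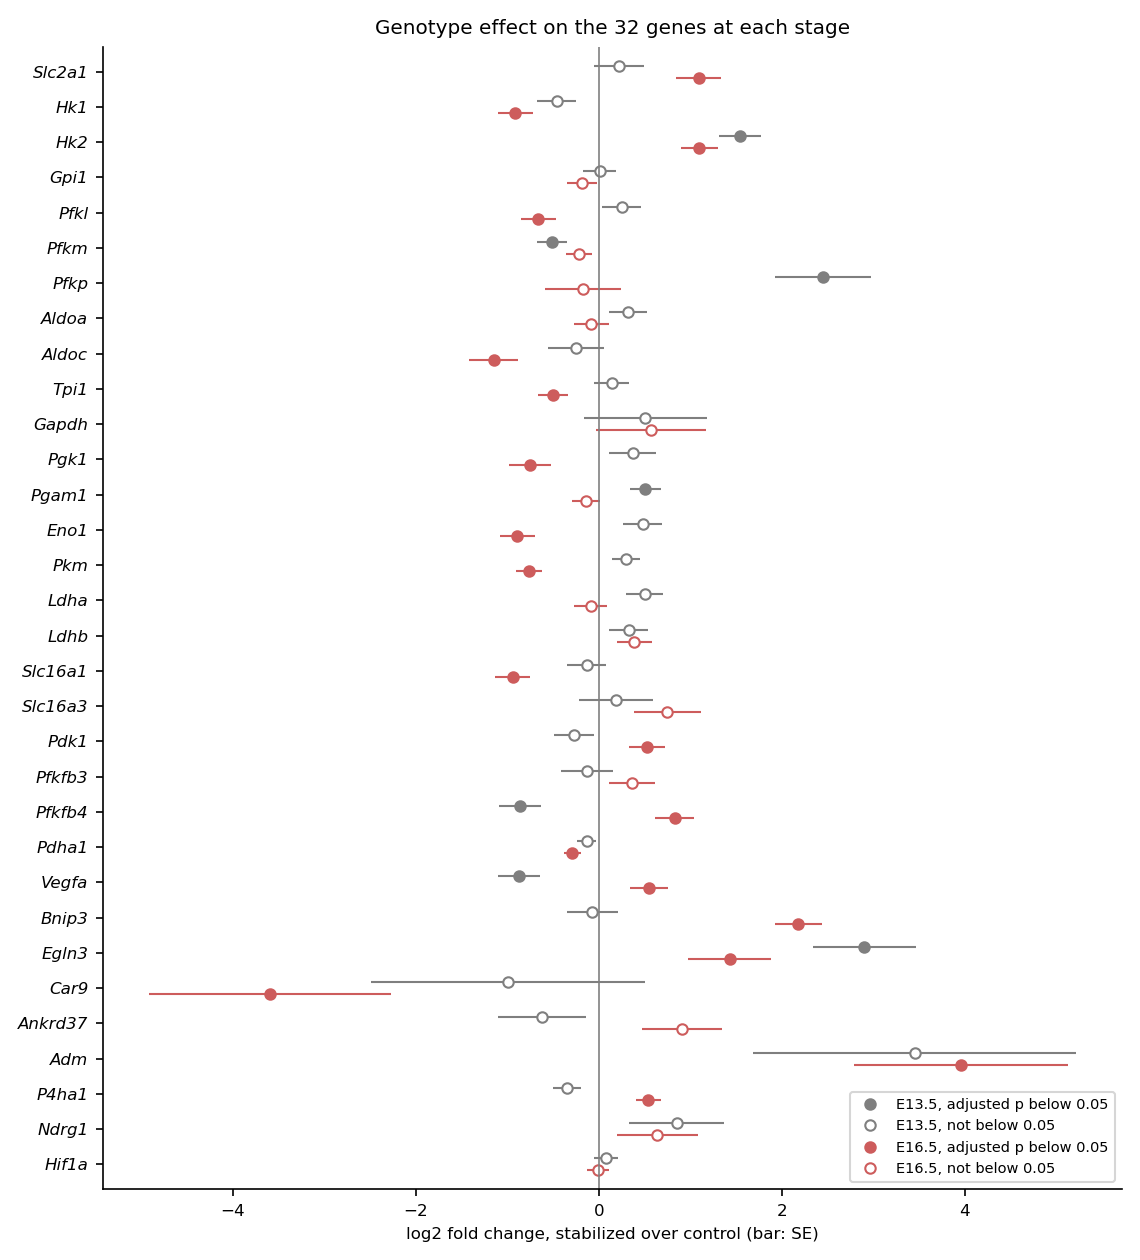
Log2 fold changes of stabilized over control epithelium for the 32 members, a row per gene in order of role, at E13.5 (grey) and E16.5 (red), with bars of 1 standard error. Hk2 lies right of 0 at both stages, the lower glycolytic genes Pgk1, Eno1 and Pkm lie left of 0 at E16.5, and Bnip3 stands at 2.18 at E16.5 against -0.07 at E13.5.

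Most of the genes were more abundant at the later stage. In controls, 19 of the 32 members were higher at E16.5 than at E13.5 and 5 were lower, 59.4% and 15.6%, beside a background of 47.5% called, 24.9% higher and 22.6% lower. In stabilized epithelium 21 were higher and 1, Slc16a1, was lower, 65.6% and 3.12%, beside 28.0% called, 16.52% higher and 11.5% lower. The members' median stage effect was 1.09 in controls, against -0.03 over all tested genes, and 0.83 in stabilized epithelium, against 0.00. The 5 members that were lower at E16.5 in controls were Pfkm, Pfkfb4, Vegfa, Bnip3 and P4ha1, and the Pfkm call (log2 fold change -0.41 ± 0.151, edgeR adjusted p = 0.0306) was lost without any 1 of E16.5 control library 3 and E13.5 control libraries 1 and 4 (edgeR adjusted p = 0.0622 to 0.105). Hk1 was higher at E16.5 in controls (log2 fold change 0.53 ± 0.205, edgeR adjusted p = 0.0388), a call lost without any 1 of E16.5 control libraries 1, 2, 3 and 4 and E13.5 control libraries 1, 2 and 3 (edgeR adjusted p = 0.05002 to 0.107) and with the deposited table's offsets (log2 fold change 0.06, edgeR adjusted p = 0.874). The groups did not overlap for 23 members in controls and for 16 in stabilized epithelium, again without a background over all tested genes.

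**Figure D2:**
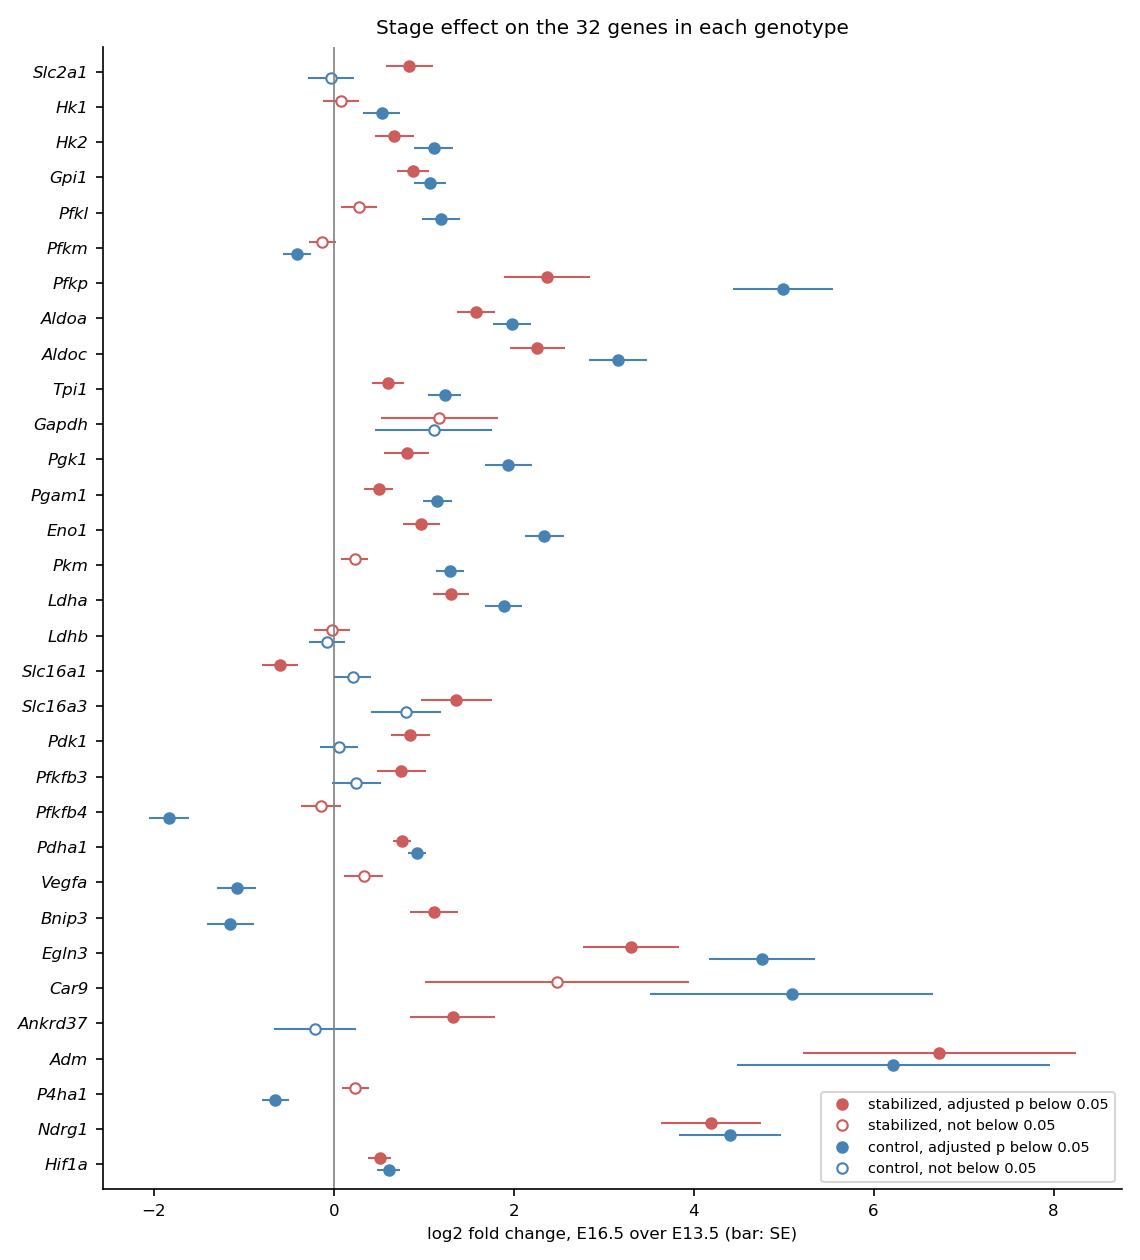
Log2 fold changes of E16.5 over E13.5 for the 32 members, a row per gene in order of role, in stabilized epithelium (red) and in controls (blue), with bars of 1 standard error. Eno1 stands at 0.97 in stabilized epithelium and at 2.34 in controls, and Bnip3 stands at 1.11 in stabilized epithelium and at -1.15 in controls.

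Slc2a1 (ENSMUSG00000028645, chromosome 4, 119108711 to 119137983, GRCm38), the basal glucose transporter of most embryonic cells, was higher in stabilized epithelium at E16.5. At E13.5 it had 156, 188, 183 and 117 CPM in stabilized buds, against 145, 146, 141 and 119 CPM in control buds. At E16.5 it had 572, 209, 196, 217 and 244 CPM in stabilized epithelium, against 103, 142, 146, 159.6 and 125 CPM in control epithelium. The E13.5 groups overlapped, whereas every E16.5 stabilized library lay above every control library, library 1 far above the others. The log2 fold change was 0.22 ± 0.273, edgeR adjusted p = 0.695 at E13.5. At E16.5 it was 1.09 ± 0.247, edgeR adjusted p = 0.00155, and without stabilized library 1 it was 0.68, edgeR adjusted p = 0.000853 (adjusted p 1.43e-05 to 0.0143 over all alternatives). Between the stages its log2 fold change in controls was -0.03 ± 0.259, edgeR adjusted p = 0.951, while in stabilized epithelium it was 0.84 ± 0.263, edgeR adjusted p = 0.0228; that call was lost without any 1 of E13.5 stabilized libraries 1 and 4 (edgeR adjusted p = 0.0549 to 0.0780) and with that stage or genotype fitted alone (log2 fold change 0.83, edgeR adjusted p = 0.0825).

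Hexokinase traps glucose as glucose 6-phosphate, and the inducible and housekeeping forms went different ways at E16.5. Hk2 (ENSMUSG00000000628, chromosome 6, 82725025 to 82774454, GRCm38), the insulin- and hypoxia-inducible form, had 170.1, 119, 184 and 167 CPM in stabilized buds, against 53.1, 44.1, 53.4 and 69.6 CPM in control buds at E13.5. It had 412, 196, 249.9, 151 and 262 CPM in stabilized epithelium, against 112, 104, 134, 119 and 122 CPM in control epithelium at E16.5. All stabilized libraries lay above all control libraries at both stages, and the call held under every alternative. On the log2 scale the difference was 1.54 ± 0.230, edgeR adjusted p = 8.84e-05 at E13.5. The value at E16.5 was 1.10 ± 0.203, edgeR adjusted p = 0.000206. Hk1, the form that most tissues use, averaged 43.5 ± 9.71 CPM in stabilized buds and 59.7 ± 10.2 CPM in control buds at E13.5 (log2 fold change -0.46 ± 0.215, edgeR adjusted p = 0.182), where the groups overlapped, and 46.0 ± 16.4 CPM in stabilized epithelium and 86.3 ± 7.201 CPM in control epithelium at E16.5 (log2 fold change -0.91 ± 0.193, edgeR adjusted p = 0.000775), where they did not. Without the E13.5 control library and the E16.5 stabilized library that stood apart, Hk1 was lower at E13.5 too (log2 fold change -0.57, edgeR adjusted p = 0.0240; adjusted p 0.0240 to 0.395 over all alternatives). Hk2 was also higher at E16.5 than at E13.5 in both genotypes (log2 fold change 0.67 ± 0.215, edgeR adjusted p = 0.0255 in stabilized epithelium and 1.11 ± 0.219, edgeR adjusted p = 0.000370 in controls), and the call in stabilized epithelium was lost without any 1 of E16.5 stabilized library 1 and E13.5 stabilized library 2 (edgeR adjusted p = 0.0829 to 0.0929), with that stage or genotype fitted alone (log2 fold change 0.66, edgeR adjusted p = 0.0750) and without both libraries that stood apart (log2 fold change 0.43, edgeR adjusted p = 0.0774).

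**Figure D3:**
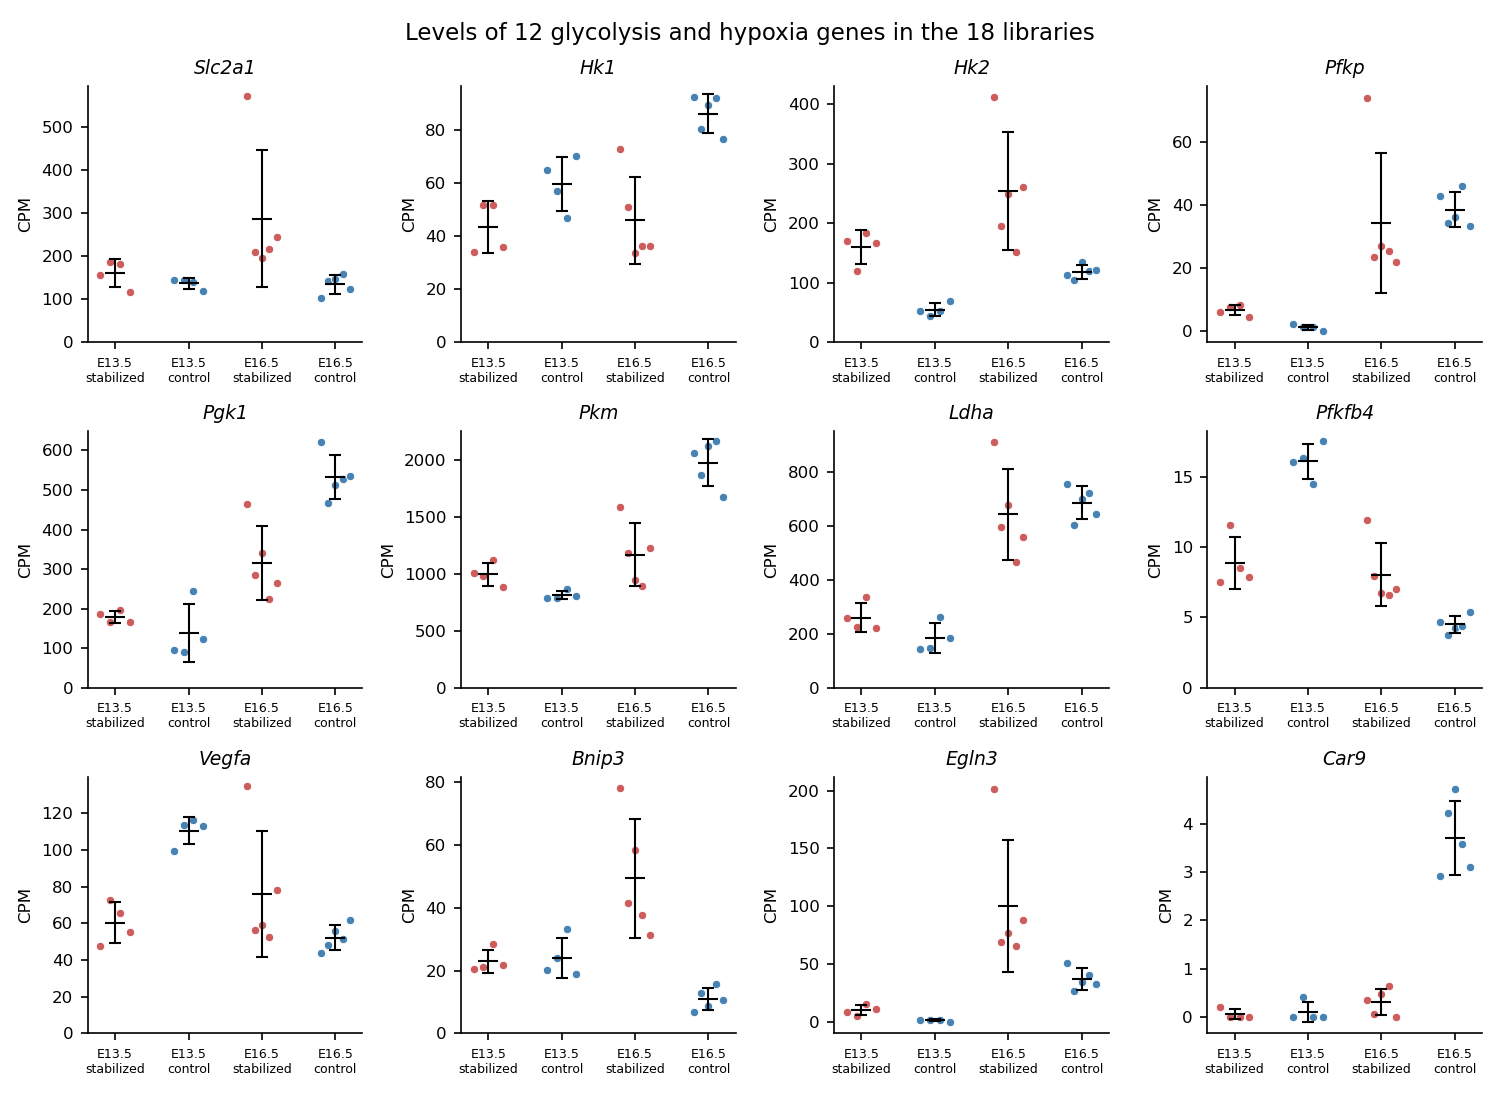
CPM of 12 members in each library (dots) with the group mean and SD, stabilized left of control at each stage. Hk2 and Egln3 are higher in stabilized samples at both stages without overlap, Pgk1 and Pkm are lower at E16.5, and E16.5 stabilized library 1 is the highest dot for Slc2a1, at 572 CPM.

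The share of each form of an enzyme was computed per library from CPM per kilobase of exon. Of Hk1 plus Hk2, Hk2 made up 83.7 ± 5.01% in stabilized buds and 56.8 ± 4.35% in control buds at E13.5. It made up 88.4 ± 3.12% in stabilized epithelium and 66.2 ± 2.51% in control epithelium at E16.5, and the ranges did not overlap at either stage. Without division by length the mean shares of stabilized and control samples were 78.3% and 48.0% at E13.5, and 84.2% and 57.8% at E16.5. Of the 2 aldolases, Aldoc made up 6.20 ± 1.16% in stabilized epithelium and 12.02 ± 0.969% in control epithelium at E16.5, again without overlap, and 3.82 ± 1.06% in stabilized buds and 5.85 ± 1.93% in control buds at E13.5, with overlap. Of Slc16a1 plus Slc16a3, Slc16a3, the export form of the lactate carriers, made up 35.0 ± 9.51% in stabilized epithelium and 15.3 ± 3.84% in control epithelium at E16.5, without overlap, and 13.0 ± 6.87% in stabilized buds and 10.9 ± 1.56% in control buds at E13.5, with overlap. Of Ldha plus Ldhb, Ldha made up 73.5 ± 7.13% in stabilized epithelium and 80.1 ± 2.47% in control epithelium at E16.5 and 53.8 ± 5.47% in stabilized buds and 51.2 ± 3.29% in control buds at E13.5, and the ranges overlapped at both stages. These shares are descriptions of per-length levels and were not tested.

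**Figure D4:**
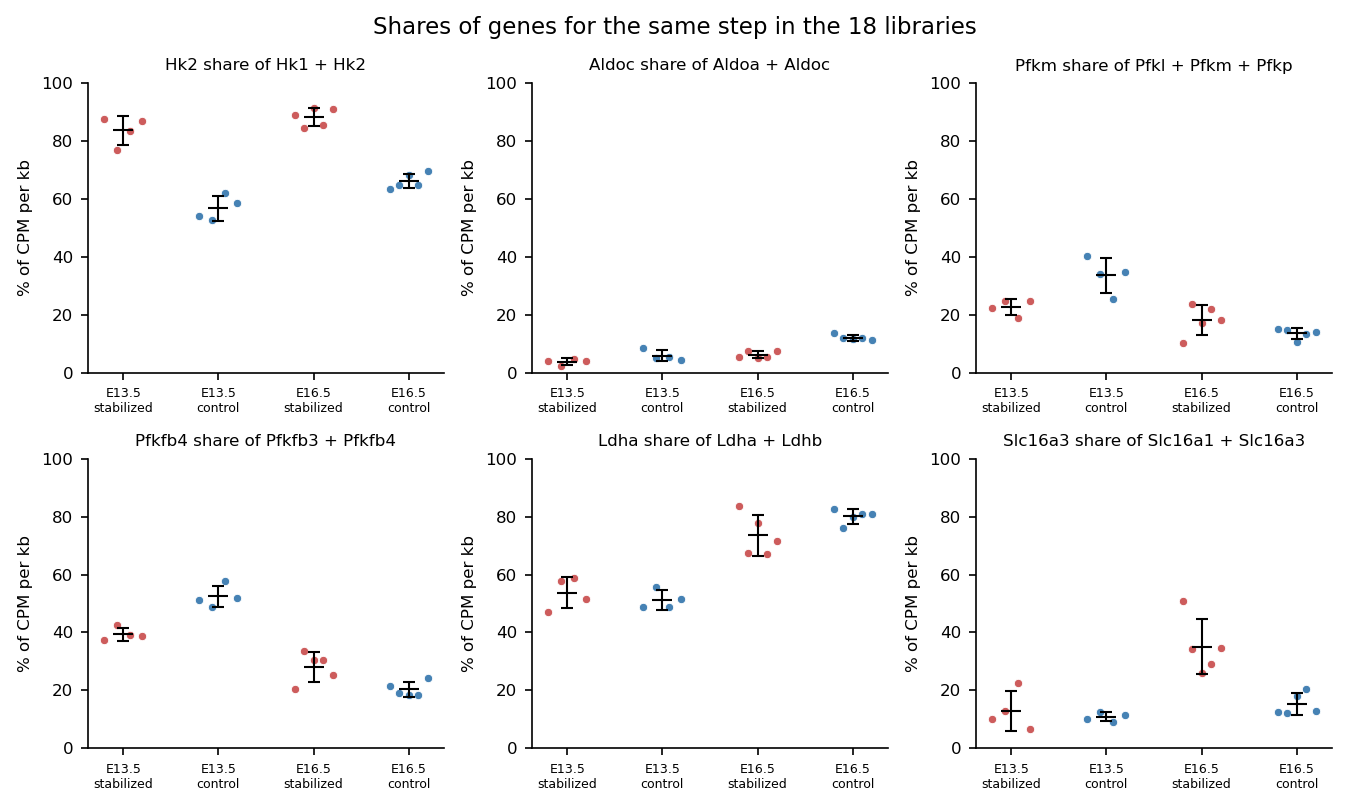
Share of named forms of 6 enzyme steps in each library, in percent of the CPM per kilobase of all forms of the step, stabilized left of control at each stage. Hk2 averages 88.4% in stabilized and 66.2% in control epithelium at E16.5, and the library ranges do not overlap at either stage.

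Upper glycolysis, from glucose 6-phosphate to the triose phosphates, included a change in the platelet form of phosphofructokinase. Pfkp (ENSMUSG00000021196, chromosome 13, 6579768 to 6648777, GRCm38) had 6.12, 7.56, 8.32 and 4.55 CPM in stabilized buds, against 2.22, 1.19, 1.27 and 0.129 CPM in control buds at E13.5. It had 73.9, 23.5, 26.8, 25.4 and 21.8 CPM in stabilized epithelium, against 42.7, 34.1, 36.3, 46.0 and 33.2 CPM in control epithelium at E16.5. At E13.5 all stabilized libraries were above all controls, at levels that remained low; at E16.5 the groups overlapped, with stabilized library 1 highest and the other 4 below every control. Its log2 fold change was 2.45 ± 0.521, edgeR adjusted p = 0.00327 at E13.5. For E16.5 it was -0.17 ± 0.418, edgeR adjusted p = 0.785. The interaction was -2.62 ± 0.662, edgeR adjusted p = 0.00571; without stabilized library 1 the E16.5 value was -0.66, edgeR adjusted p = 0.176. The stage effect on Pfkp was 2.37 ± 0.482, edgeR adjusted p = 0.00133 in stabilized epithelium and 4.99 ± 0.559, edgeR adjusted p = 1.39e-06 in controls. Pfkp overlaps Pitrm1, and no source used here gives the strand setting of the counting; reads of the pair may be mixed.

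Aldoc, the brain-type aldolase, had 10.02, 4.21, 13.3 and 7.197 CPM in stabilized buds, against 13.0, 8.42, 12.5 and 7.34 CPM in control buds at E13.5. It had 56.7, 47.0, 26.9, 29.6 and 47.4 CPM in stabilized epithelium, against 119, 80.7, 89.3, 102 and 69.1 CPM in control epithelium at E16.5. The E13.5 libraries overlapped at low levels, and at E16.5 all stabilized libraries lay below all controls. By edgeR, its log2 fold change was -0.25 ± 0.305, edgeR adjusted p = 0.701 at E13.5. The E16.5 value was -1.15 ± 0.271, edgeR adjusted p = 0.00206, and Aldoc was higher at E16.5 than at E13.5 in both genotypes (log2 fold change 2.26 ± 0.307, edgeR adjusted p = 2.25e-05 in stabilized epithelium and 3.16 ± 0.319, edgeR adjusted p = 2.05e-07 in controls).

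Of the other upper members, Pfkl, the liver-type phosphofructokinase and the main form per length, averaged 209.9 ± 75.7 CPM in stabilized epithelium and 332 ± 33.1 CPM in control epithelium at E16.5 (log2 fold change -0.66 ± 0.192, edgeR adjusted p = 0.00891), with overlap through stabilized library 1. With the deposited table's offsets that value was -0.61, edgeR adjusted p = 0.0573. Its interaction was -0.91 ± 0.287, edgeR adjusted p = 0.0196, a call lost without E16.5 control library 3 (edgeR adjusted p = 0.0501) and with the deposited table's offsets (log2 fold change -0.67, edgeR adjusted p = 0.193). Pfkm, the muscle form, which overlaps Senp1 in the genome, averaged 25.6 ± 2.79 CPM in stabilized buds and 36.3 ± 5.66 CPM in control buds at E13.5 (log2 fold change -0.51 ± 0.160, edgeR adjusted p = 0.0386); that call was lost without any 1 of E13.5 stabilized libraries 1, 3 and 4 and E13.5 control libraries 1 and 4 (edgeR adjusted p = 0.0850 to 0.117), with no filter on low counts (log2 fold change -0.50, edgeR adjusted p = 0.0642) and with that stage or genotype fitted alone (log2 fold change -0.51, edgeR adjusted p = 0.0823). Tpi1, which interconverts the triose phosphates, averaged 232 ± 47.3 CPM in stabilized epithelium and 327 ± 32.8 CPM in control epithelium at E16.5 (log2 fold change -0.50 ± 0.168, edgeR adjusted p = 0.0234), and the call was lost without any 1 of E16.5 stabilized libraries 2, 3, 4 and 5 and E16.5 control libraries 1, 3 and 4 (edgeR adjusted p = 0.0511 to 0.0665). Gpi1, the glucose phosphate isomerase, and Aldoa, the main aldolase, did not pass between genotypes at either stage: at E16.5 their log2 fold changes were -0.18 ± 0.162, edgeR adjusted p = 0.3899 and -0.08 ± 0.188, edgeR adjusted p = 0.778. Both were higher at E16.5 than at E13.5 in both genotypes, Aldoa by 1.58 ± 0.208 in stabilized epithelium (edgeR adjusted p = 1.29e-05) and 1.98 ± 0.212 in controls (edgeR adjusted p = 3.00e-07). The table held 2 identifiers with the symbol Aldoa, of which ENSMUSG00000030695 was used. Of the 9 upper members, hexokinases included, 1 was higher and 4 were lower at E16.5 in stabilized epithelium, and 8 were higher at the later stage in controls.

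Of the 5 members of the ATP-yielding lower part of the pathway, Pgk1, Eno1 and Pkm were lower in stabilized epithelium at E16.5. With Pgam1 they also had a negative interaction. Pgk1 (ENSMUSG00000062070, chromosome X, 106187100 to 106203699, GRCm38), which makes the first ATP of the pathway, had 188, 167, 197 and 166 CPM in stabilized buds, against 96.0, 90.1, 245 and 122 CPM in control buds at E13.5. It had 464, 285, 341, 225 and 265 CPM in stabilized epithelium, against 620.2, 468, 513, 527 and 535 CPM in control epithelium at E16.5. At E13.5 the groups overlapped only through control library 3, and at E16.5 they did not overlap. Stabilized over control, the log2 fold change was 0.37 ± 0.258, edgeR adjusted p = 0.406 at E13.5. At E16.5 it was -0.75 ± 0.231, edgeR adjusted p = 0.0133. The interaction was -1.13 ± 0.346, edgeR adjusted p = 0.0174. Without E13.5 control library 3 the E13.5 effect passed (log2 fold change 0.80, edgeR adjusted p = 0.00590; adjusted p 0.000783 to 0.707 over all alternatives), so that Pgk1 was then higher at E13.5 and lower at E16.5 in stabilized epithelium. From stage to stage, E16.5 over E13.5, its log2 fold change was 0.81 ± 0.248, edgeR adjusted p = 0.0190 in stabilized epithelium and 1.94 ± 0.258, edgeR adjusted p = 5.60e-06 in controls. The call in stabilized epithelium was lost without any 1 of E16.5 stabilized library 1 and E13.5 stabilized libraries 2 and 4 (edgeR adjusted p = 0.0526 to 0.0620).

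Eno1, the enolase of most tissues, had 293, 264, 269.8 and 148 CPM in stabilized buds, against 183, 169, 203 and 142 CPM in control buds at E13.5. It had 616, 561, 358, 392 and 452 CPM in stabilized epithelium, against 1139.6, 834, 873, 921 and 643 CPM in control epithelium at E16.5. Stabilized library 4 lay among the E13.5 controls and the other 3 above them, and at E16.5 all stabilized libraries lay below all controls. The difference in log2 terms was 0.48 ± 0.214, edgeR adjusted p = 0.152 at E13.5. The value at E16.5 was -0.89 ± 0.192, edgeR adjusted p = 0.000884. The interaction was -1.37 ± 0.287, edgeR adjusted p = 0.00105. Over the stages, E16.5 over E13.5, its log2 fold change was 0.97 ± 0.206, edgeR adjusted p = 0.00148 in stabilized epithelium and 2.34 ± 0.218, edgeR adjusted p = 4.83e-08 in controls. With the offsets implied by the deposited normalized table the interaction was -0.79, edgeR adjusted p = 0.302. With them the E16.5 genotype value was -0.36, edgeR adjusted p = 0.464 (adjusted p 3.55e-06 to 0.464 over all alternatives).

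Pkm (ENSMUSG00000032294, chromosome 9, 59656368 to 59679375, GRCm38), pyruvate kinase, had 1003, 978, 1123 and 879 CPM in stabilized buds, against 784, 791, 862 and 802 CPM in control buds at E13.5. It had 1585, 1177, 943, 893 and 1226 CPM in stabilized epithelium, against 2053, 1862, 2115, 2162 and 1675 CPM in control epithelium at E16.5. The stabilized libraries were all above the controls at E13.5 and all below them at E16.5. The log2 fold change was 0.30 ± 0.155, edgeR adjusted p = 0.237 at E13.5, where the test did not pass, and -0.76 ± 0.140, edgeR adjusted p = 0.000189 at E16.5. The interaction was -1.06 ± 0.209, edgeR adjusted p = 0.000622. Over the stages, E16.5 over E13.5, it was 0.23 ± 0.148, edgeR adjusted p = 0.285 in stabilized epithelium and 1.29 ± 0.152, edgeR adjusted p = 1.05e-06 in controls. Pkm had the highest level per length of the members in E13.5 stabilized buds, 199 ± 20.1 CPM per kilobase, when each gene was read from its own counts. For Gapdh these leave out the counts of its near-identical copies, given below. With them it averaged 1272 CPM in these buds, against 465 CPM alone, so the rank holds for own counts only. By own counts Pkm also ranked 1 in controls at E13.5 and E16.5, with 161.9 and 394.6 CPM per kilobase. In E16.5 stabilized epithelium it ranked 3, with 232.9 CPM per kilobase. Pgam1, the phosphoglycerate mutase, averaged 356 ± 72.0 CPM in stabilized buds and 251 ± 50.4 CPM in control buds at E13.5 (log2 fold change 0.51 ± 0.169, edgeR adjusted p = 0.0491), a call lost without any 1 of 14 of the 18 libraries (edgeR adjusted p = 0.0555 to 0.193), with the deposited table's offsets (log2 fold change 0.46, edgeR adjusted p = 0.119), with RLE factors (log2 fold change 0.50, edgeR adjusted p = 0.0564), with no filter on low counts (log2 fold change 0.51, edgeR adjusted p = 0.0559) and with that stage or genotype fitted alone (log2 fold change 0.50, edgeR adjusted p = 0.125). It averaged 504 ± 103 CPM in stabilized epithelium and 556 ± 24.3 CPM in control epithelium at E16.5 (log2 fold change -0.14 ± 0.151, edgeR adjusted p = 0.489). Its interaction was -0.65 ± 0.227, edgeR adjusted p = 0.0340, a call lost without any 1 of 12 of the 18 libraries (edgeR adjusted p = 0.0520 to 0.0939), with the deposited table's offsets (log2 fold change -0.62, edgeR adjusted p = 0.0703) and with RLE factors (log2 fold change -0.60, edgeR adjusted p = 0.0519).

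Gapdh, the triose phosphate dehydrogenase, could not be read from its own counts. It had 1120.2, 211, 344 and 186 CPM in stabilized buds, against 127, 179.7, 848 and 149.6 CPM in control buds at E13.5. It had 1075, 1315, 345, 1073 and 1441 CPM in stabilized epithelium, against 798, 776, 679, 874 and 396 CPM in control epithelium at E16.5. The scatter within groups was wide, with 1 library of each genotype far above the other 3 at E13.5, and no comparison of Gapdh passed. The table held 75 other loci whose transcripts matched Gapdh at 95% identity or more over at least 300 bases, and these took 17.1 to 83.9% of the joint counts of a library, the largest part at Gm7336. Summed with these copies, Gapdh was 1272 ± 200.3 CPM in stabilized and 837 ± 137 CPM in control buds at E13.5 (log2 fold change 0.60 ± 0.173, edgeR adjusted p = 0.0214), and 2095 ± 399.8 CPM in stabilized and 2710.3 ± 329.6 CPM in control epithelium at E16.5 (log2 fold change -0.37 ± 0.154, edgeR adjusted p = 0.0600). The interaction was -0.98 ± 0.231, edgeR adjusted p = 0.00289. In each group the SD of the sum was smaller relative to its mean than that of the gene alone. Eno1 shared its reads with 3 copies, mainly Eno1b, which took 36.6 to 66.8% of the joint counts; summed, its log2 fold change was 0.63 ± 0.159, edgeR adjusted p = 0.00971 at E13.5. For E16.5 it was -1.11 ± 0.143, edgeR adjusted p = 3.55e-06. Both sums were higher in stabilized buds at E13.5 by this test. The summing was chosen after the data were seen.

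**Figure D5:**
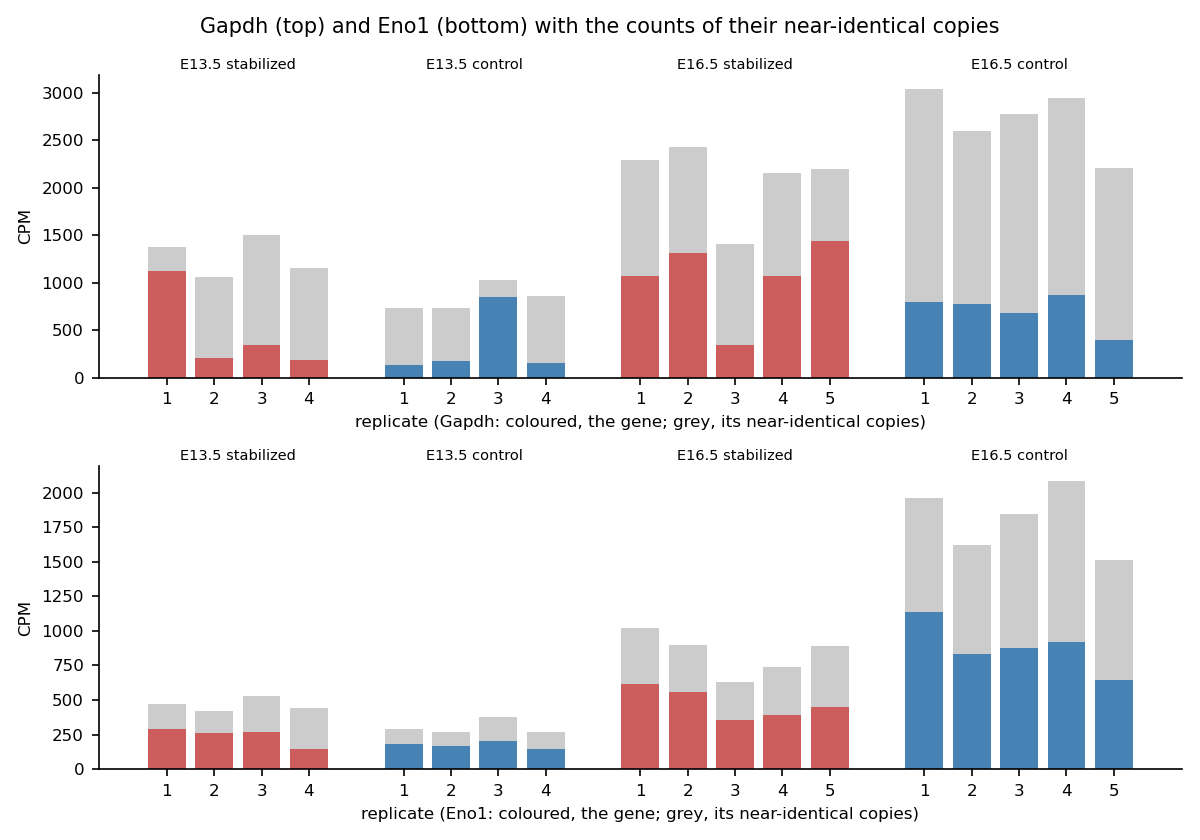
CPM of Gapdh and of Eno1 in each library as stacked bars, the gene in colour and its near-identical copies at other loci in grey, stabilized left of control at each stage. The Gapdh bar alone varies between libraries of a group, and its copies take 17.1 to 83.9% of the joint counts.

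At the lactate branch, where pyruvate is reduced and exported, a single member, Slc16a1, differed between genotypes. Ldha (ENSMUSG00000063229, chromosome 7, 46841475 to 46855627, GRCm38), whose product favours lactate formation, had 259, 225, 336 and 220.4 CPM in stabilized buds, against 143, 148, 262 and 185 CPM in control buds at E13.5. It had 910.2, 595, 677, 467 and 559.9 CPM in stabilized epithelium, against 756, 604, 700.5, 721 and 644 CPM in control epithelium at E16.5. The groups overlapped at both stages, at E13.5 through control library 3. On the log2 scale the difference was 0.50 ± 0.205, edgeR adjusted p = 0.120 at E13.5. The E16.5 value was -0.09 ± 0.183, edgeR adjusted p = 0.717; without E13.5 control library 3 the E13.5 value was 0.71, edgeR adjusted p = 0.0147 (adjusted p 0.00430 to 0.543 over all alternatives). Ldha was higher at E16.5 than at E13.5 in stabilized epithelium (log2 fold change 1.30 ± 0.200, edgeR adjusted p = 6.70e-05) and in controls (1.89 ± 0.205, edgeR adjusted p = 3.58e-07). Ldhb, the heart form, did not pass in any comparison (log2 fold change 0.39 ± 0.191, edgeR adjusted p = 0.112 at E16.5).

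Slc16a1, a lactate and pyruvate carrier, averaged 54.6 ± 18.9 CPM in stabilized epithelium and 105 ± 7.61 CPM in control epithelium at E16.5 without overlap (log2 fold change -0.94 ± 0.193, edgeR adjusted p = 0.000573), and 82.8 ± 15.1 CPM in stabilized buds and 90.6 ± 21.8 CPM in control buds at E13.5 (log2 fold change -0.13 ± 0.214, edgeR adjusted p = 0.799). Its interaction of -0.81 ± 0.287, edgeR adjusted p = 0.0369 was lost without any 1 of 13 of the 18 libraries (edgeR adjusted p = 0.0521 to 0.0849), with the deposited table's offsets (log2 fold change -0.80, edgeR adjusted p = 0.0929) and with RLE factors (log2 fold change -0.76, edgeR adjusted p = 0.0517). In stabilized epithelium it was lower at E16.5 than at E13.5 (log2 fold change -0.60 ± 0.202, edgeR adjusted p = 0.0312), a call lost without any 1 of E16.5 stabilized libraries 2, 4 and 5 and E13.5 stabilized libraries 2 and 4 (edgeR adjusted p = 0.0602 to 0.124), with the deposited table's offsets (log2 fold change -0.60, edgeR adjusted p = 0.0776) and with that stage or genotype fitted alone (log2 fold change -0.61, edgeR adjusted p = 0.0656). Slc16a3, the carrier of cells that export much lactate, averaged 38.2 ± 26.2 CPM in stabilized epithelium and 22.7 ± 5.85 CPM in control epithelium at E16.5 (log2 fold change 0.75 ± 0.362, edgeR adjusted p = 0.108), where stabilized library 1 alone stood at 84.3 CPM and the others between 22.0 and 34.2 CPM.

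The switches that set the flow into and out of glycolysis differed by form. Pfkfb4, which sets the level of the phosphofructokinase activator fructose 2,6-bisphosphate, had 7.49, 11.6, 8.49 and 7.88 CPM in stabilized buds, against 16.0, 16.4, 14.5 and 17.5 CPM in control buds at E13.5. It had 11.9, 7.95, 6.74, 6.57 and 6.99 CPM in stabilized epithelium, against 4.70, 3.78, 4.28, 4.39 and 5.43 CPM in control epithelium at E16.5. The groups did not overlap at either stage, stabilized being below control at E13.5 and above it at E16.5. Its log2 fold change was -0.86 ± 0.234, edgeR adjusted p = 0.0156 at E13.5. At E16.5 it was 0.83 ± 0.210, edgeR adjusted p = 0.00335. The interaction was 1.69 ± 0.315, edgeR adjusted p = 0.000357. The E13.5 call was lost without any 1 of E13.5 stabilized libraries 1 and 4 (edgeR adjusted p = 0.0512 to 0.0547), and with the deposited table's offsets all 3 were lost (E13.5 log2 fold change -0.46, edgeR adjusted p = 0.597; E16.5 0.76, edgeR adjusted p = 0.128; interaction 1.22, edgeR adjusted p = 0.125). In controls Pfkfb4 was lower at E16.5 than at E13.5 (log2 fold change -1.83 ± 0.223, edgeR adjusted p = 1.48e-06), again lost with these offsets (-0.67, edgeR adjusted p = 0.185).

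Pfkfb3, the more widely used sister enzyme, did not pass between genotypes (log2 fold change 0.36 ± 0.253, edgeR adjusted p = 0.272 at E16.5) and ranged from 23.1 to 72.6 CPM in stabilized and from 24.6 to 30.2 CPM in control epithelium at E16.5. Pdk1, the kinase that shuts pyruvate out of the mitochondrial oxidation route, averaged 103 ± 30.8 CPM in stabilized epithelium and 71.3 ± 9.90 CPM in control epithelium at E16.5 (log2 fold change 0.53 ± 0.198, edgeR adjusted p = 0.0388); the call was lost without any 1 of E16.5 stabilized libraries 1 and 3 and E16.5 control libraries 1, 2, 3 and 4 (edgeR adjusted p = 0.0563 to 0.128), with the deposited table's offsets (log2 fold change 0.73, edgeR adjusted p = 0.0733) and without both libraries that stood apart (log2 fold change 0.39, edgeR adjusted p = 0.0930). Its interaction was 0.80 ± 0.296, edgeR adjusted p = 0.0461, a call lost without any 1 of 12 of the 18 libraries (edgeR adjusted p = 0.0523 to 0.104), with no filter on low counts (log2 fold change 0.80, edgeR adjusted p = 0.0514) and without both libraries that stood apart (log2 fold change 0.51, edgeR adjusted p = 0.167). Pdha1, the subunit of pyruvate dehydrogenase that Pdk1 phosphorylates, was slightly lower at E16.5, 149 ± 6.54 CPM in stabilized epithelium and 183 ± 10.1 CPM in control epithelium (log2 fold change -0.29 ± 0.0936, edgeR adjusted p = 0.0162), without overlap; the call was lost without E16.5 control library 1 (edgeR adjusted p = 0.0593) and, with the deposited table's offsets, was -0.19, edgeR adjusted p = 0.289. Pdha1 overlaps Map3k15 in the genome.

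Among the hypoxia targets, Bnip3 (ENSMUSG00000078566, chromosome 7, 138890836 to 138909519, GRCm38), which marks mitochondria for removal, was higher in stabilized epithelium at E16.5. It had 20.5, 21.0, 28.5 and 21.7 CPM in stabilized buds, against 20.3, 24.0, 33.1 and 19.0 CPM in control buds at E13.5. It had 78.1, 41.6, 58.4, 37.5 and 31.4 CPM in stabilized epithelium, against 6.74, 12.8, 8.64, 15.7 and 10.6 CPM in control epithelium at E16.5. The E13.5 groups overlapped, and at E16.5 the lowest stabilized library stood above the highest control. By edgeR, its log2 fold change was -0.07 ± 0.277, edgeR adjusted p = 0.934 at E13.5. The value at E16.5 was 2.18 ± 0.259, edgeR adjusted p = 1.34e-06. The interaction was 2.25 ± 0.377, edgeR adjusted p = 0.000126. Without E16.5 stabilized library 1 the E16.5 value was 1.95, edgeR adjusted p = 3.06e-06, and no alternative ended the E16.5 or interaction call. Between the stages Bnip3 was higher at E16.5 in stabilized epithelium (log2 fold change 1.11 ± 0.269, edgeR adjusted p = 0.00414) and lower at E16.5 in controls (-1.15 ± 0.264, edgeR adjusted p = 0.00139).

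Vegfa, the growth factor that draws blood vessels, had 47.8, 73.0, 65.4 and 55.5 CPM in stabilized buds, against 99.5, 114, 116 and 113 CPM in control buds at E13.5. It had 135, 56.2, 59.1, 52.3 and 78.1 CPM in stabilized epithelium, against 43.8, 47.9, 55.7, 51.6 and 61.6 CPM in control epithelium at E16.5. At E13.5 all stabilized libraries lay below all controls, and at E16.5 the groups overlapped, with stabilized library 1 far above the rest. Stabilized over control, the log2 fold change was -0.87 ± 0.231, edgeR adjusted p = 0.0136 at E13.5. For E16.5 it was 0.55 ± 0.206, edgeR adjusted p = 0.0394. The interaction was 1.42 ± 0.310, edgeR adjusted p = 0.00151. The E13.5 call was lost without E13.5 stabilized library 1 (edgeR adjusted p = 0.0517) and with the deposited table's offsets (-1.05, edgeR adjusted p = 0.0564). The E16.5 call was lost without any 1 of E16.5 stabilized libraries 1 and 5 and E16.5 control libraries 1, 2, 3 and 4 (edgeR adjusted p = 0.0545 to 0.207), with the deposited table's offsets (log2 fold change 0.77, edgeR adjusted p = 0.0602), with that stage or genotype fitted alone (log2 fold change 0.55, edgeR adjusted p = 0.0718) and without both libraries that stood apart (log2 fold change 0.24, edgeR adjusted p = 0.199), whereas no alternative ended the interaction call. In controls Vegfa was lower at E16.5 than at E13.5 (log2 fold change -1.08 ± 0.217, edgeR adjusted p = 0.000408); in stabilized epithelium the stage effect was 0.33 ± 0.219, edgeR adjusted p = 0.288.

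Egln3, of the family of hydroxylases that mark Hif1a for destruction and are induced by it, had 8.65, 5.34, 15.7 and 10.9 CPM in stabilized buds, against 1.66, 1.903, 1.77 and 0.0971 CPM in control buds at E13.5. It had 202, 68.6, 77.0, 65.2 and 88.1 CPM in stabilized epithelium, against 51.0, 26.7, 34.5, 40.1 and 32.9 CPM in control epithelium at E16.5. All stabilized libraries lay above all controls at both stages. The difference in log2 terms was 2.90 ± 0.562, edgeR adjusted p = 0.00180 at E13.5. The E16.5 value was 1.43 ± 0.451, edgeR adjusted p = 0.0175; the E16.5 call was lost without E16.5 stabilized library 1 (edgeR adjusted p = 0.0654) and without both libraries that stood apart (log2 fold change 1.01, edgeR adjusted p = 0.0662), with a log2 fold change of 1.01 without library 1 alone as well. Egln3 was also higher at E16.5 than at E13.5 in stabilized epithelium (log2 fold change 3.30 ± 0.532, edgeR adjusted p = 0.000214) and in controls (4.76 ± 0.589, edgeR adjusted p = 5.72e-06).

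Car9, the membrane carbonic anhydrase that helps cells export acid and a widely used hypoxia marker, went the other way. At E13.5 it was near the limit of counting, with 0.205, 0, 0 and 0 CPM in stabilized buds, against 0, 0.416, 0 and 0 CPM in control buds. At E16.5 it had 0.344, 0.0631, 0.477, 0.643 and 0 CPM in stabilized epithelium, against 2.92, 4.23, 4.74, 3.58 and 3.11 CPM in control epithelium. At E16.5 all stabilized libraries were below all controls. The log2 fold change was -3.59 ± 1.32, edgeR adjusted p = 0.0349 at E16.5, a call lost without any 1 of E16.5 stabilized libraries 1, 2, 3 and 5 and E16.5 control libraries 2, 3 and 4 (edgeR adjusted p = 0.0501 to 0.0722); over all alternatives the edgeR adjusted p = 0.00184 to 0.0722. In controls Car9 was higher at E16.5 than at E13.5, where 1 of 4 libraries held counts (edgeR adjusted p = 0.0121).

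Adm, the vessel-dilating peptide adrenomedullin, had 0, 0, 0 and 0.164 CPM in stabilized buds, against 0, 0, 0 and 0 CPM in control buds at E13.5. It had 13.7, 2.68, 2.25, 2.78 and 2.68 CPM in stabilized epithelium, against 0.846, 0.420, 0.113, 0.134 and 0 CPM in control epithelium at E16.5. The E16.5 groups did not overlap, and stabilized library 1 stood above the other 4. The E16.5 log2 fold change was 3.96 ± 1.17, edgeR adjusted p = 0.0118. Without stabilized library 1 it was 3.08, edgeR adjusted p = 0.0714, and no longer passed. No E13.5 control library held a count of Adm. Its mean in E16.5 controls, 0.303 CPM from 49 counts in all, was 12.9-fold a floor of 3 counts over the E13.5 control group. The floor bounds only the E13.5 level, and the E16.5 mean is itself near 0. The stage effect in controls passed (edgeR adjusted p = 0.00751).

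P4ha1, a collagen prolyl hydroxylase, averaged 68.1 ± 10.9 CPM in stabilized epithelium and 47.0 ± 6.37 CPM in control epithelium at E16.5 without overlap (log2 fold change 0.54 ± 0.138, edgeR adjusted p = 0.00391), and 57.8 ± 9.89 CPM in stabilized buds and 73.6 ± 10.8 CPM in control buds at E13.5 (log2 fold change -0.35 ± 0.154, edgeR adjusted p = 0.153). The interaction was 0.88 ± 0.207, edgeR adjusted p = 0.00268; no alternative ended the E16.5 or the interaction call. Ndrg1, a stress and differentiation gene, did not pass between genotypes (log2 fold change 0.64 ± 0.442, edgeR adjusted p = 0.273 at E16.5) and was higher at E16.5 than at E13.5 in stabilized epithelium (log2 fold change 4.19 ± 0.557, edgeR adjusted p = 3.80e-05) and in controls (4.40 ± 0.566, edgeR adjusted p = 9.47e-06). Ankrd37, which overlaps Ufsp2, did not pass between genotypes either (log2 fold change 0.91 ± 0.434, edgeR adjusted p = 0.100 at E16.5).

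Hif1a itself, the oxygen-regulated subunit, had 190.1, 222, 235 and 261 CPM in stabilized buds, against 193, 211, 209 and 247 CPM in control buds at E13.5. It had 337, 298, 378, 337 and 271 CPM in stabilized epithelium, against 346, 338, 286, 293 and 371 CPM in control epithelium at E16.5. The groups overlapped at both stages. On the log2 scale the difference was 0.08 ± 0.131, edgeR adjusted p = 0.797 at E13.5. At E16.5 it was -0.01 ± 0.117, edgeR adjusted p = 0.949, and the E16.5 over E13.5 change was 0.51 ± 0.125, edgeR adjusted p = 0.00428 in stabilized epithelium and 0.61 ± 0.126, edgeR adjusted p = 0.000565 in controls. The Hif1a protein is set mainly by its breakdown, which transcript counts do not measure.

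Marker genes of other cells and states were summed in the same libraries. Markers of hair and keratinocyte differentiation, 11 genes, summed to 2694 to 20408 CPM in stabilized and 32.6 to 178 CPM in control epithelium at E16.5, all 11 being higher by edgeR; at E13.5 the sums were 15.7 to 38.9 CPM in stabilized and 8.63 to 26.5 CPM in control buds. The highest of these sums was that of E16.5 stabilized library 1. The 20 cell cycle genes were all higher in stabilized buds at E13.5, 1936 to 2610.5 against 747 to 1084 CPM in control buds, and 17 were lower in stabilized epithelium at E16.5, 2998 to 3467 against 5164 to 5864 CPM in control epithelium. Of other cell types, 12 mesenchyme markers summed to 596 to 955 CPM in stabilized and 578 to 1019 CPM in control epithelium at E16.5. The 10 endothelium markers at E16.5 summed to 26.8 to 46.2 CPM in stabilized and 6.43 to 18.4 CPM in control samples, and the 11 immune markers to 10.6 to 12.5 CPM in stabilized and 20.2 to 28.5 CPM in control samples. Of the 8 endothelium markers tested, 1 was called higher and 0 lower at E16.5. Their log2 fold change was positive for 3 and negative for 5, with a median of -0.70. Of the 11 immune markers, 0 were called at E16.5. The 10 neural and Schwann markers at E16.5 summed to 223 to 334 CPM in stabilized and 874 to 989.7 CPM in control samples. Gene by gene they did not all follow that sum: 2 were called higher and 2 lower in stabilized epithelium. Their log2 fold change was positive for 7 and negative for 3, with a median of 0.44. At E13.5 the mesenchyme markers summed to 772 to 986 CPM in stabilized and 514 to 1272 CPM in control buds, and the endothelium markers to 6.93 to 23.7 CPM in stabilized and 3.96 to 11.8 CPM in control samples. The immune markers at E13.5 summed to 3.63 to 6.96 CPM in stabilized and 3.58 to 5.29 CPM in control samples, and the neural and Schwann markers to 313 to 349.7 CPM in stabilized and 136 to 191 CPM in control samples. The 6 melanocyte markers summed to 166 to 255 CPM in stabilized and 99.9 to 167 CPM in control epithelium at E16.5, and to 14.9 to 28.8 CPM in stabilized and 21.2 to 25.3 CPM in control buds at E13.5. Of the 11 hair and keratinocyte markers, 2 had no count in any E16.5 control library. The part of these lists in the results for glycolysis and hypoxia genes was not tested.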

How the data were processed

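RNA of 18 pools was sequenced with the Ovation SoLo kit. Per the submitters' processing notes, the tools were Salmon 0.99.0, Trimmomatic 0.39, FastQC 0.11.8, MultiQC 1.9 and DESeq2 3.15, on mm10; 3.15 may be a Bioconductor release and not a DESeq2 version, and annotation release and strand setting were not given in the sources used here. The authors deposited estimated counts per Ensembl gene, already whole numbers, and a normalized signal table; by its values, the deposited signal is the count divided by a factor that differs between genes and libraries. It served for 1 alternative, as offsets. A deposited R object was not used.

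From the counts, edgeR 4.0.16 (R 4.3.3) filtered genes (filterByExpr, minimum count 10), scaled libraries by TMM and fitted a robust quasi-likelihood model with a mean per group to all 18 libraries, with Benjamini-Hochberg adjustment over 17269 genes and a threshold of 0.05. Library totals were 26768810 to 36922108 counts. The model was tested on simulated data. Alternatives were RLE factors, no filter, DESeq2 1.42.0, the offsets, a stage or genotype alone, a replicate block, each library left out, 2 libraries left out together and near-identical copies added (BLAST 2.17.0, at least 95% identity over 300 bases); the last 2 were chosen after seeing the data. Positions are from GENCODE M21 and sequences from RefSeq (GRCm38.p6). Figures were drawn with matplotlib 3.10.9.

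The members and gene lists were chosen with earlier results of these data known. Every library is given for 16 members, most of them picked by their result. They passed the threshold with an absolute log2 fold change of at least 1 in a genotype effect or the interaction. Hif1a, Slc2a1, Gapdh, Ldha and Vegfa were to be shown whatever their result. The other members are given by mean, fold and test, and up to 3 genes of each other list by smallest adjusted p. Other genes were named for identity only.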

Additional observations from a re-analysis of the deposited data

Results flagged for a closer look

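In groups of 4 or 5 libraries, 22 of 127 group values of members had a library set far from the others by Dixon's gap test; chance flags about 1 in 20 groups. For Car9 and Adm at E13.5, 3 of these values come from groups whose other libraries were all at 0, where any count stands apart, and they show nothing beyond that count. E16.5 stabilized library 1 was the highest and apart for 10 members: it held 572 CPM of Slc2a1, 889 CPM of Aldoa, 73.9 CPM of Pfkp, 84.3 CPM of Slc16a3, 72.6 CPM of Pfkfb3, 11.9 CPM of Pfkfb4, 202 CPM of Egln3, 16.1 CPM of Ankrd37, 13.7 CPM of Adm and 294 CPM of Ndrg1. The same library had the largest sum of hair and keratinocyte markers, 20408 CPM. E16.5 stabilized library 4 was the lowest for Pdha1, at 138 CPM. At E13.5, stabilized library 1 was apart for Gapdh, at 1120.2 CPM, and for Car9, at 0.205 CPM, stabilized library 3 for Bnip3, at 28.5 CPM, and stabilized library 4 for Adm, at 0.164 CPM. Control library 3 at E13.5 was apart for Gapdh, at 848 CPM, and Pdha1, at 119 CPM, and control library 2 for Car9, at 0.416 CPM. Control library 4 at E13.5 was the lowest for Slc2a1, at 119 CPM, and Egln3, at 0.0971 CPM, and the highest for Ndrg1, at 8.61 CPM. E16.5 control library 4 was the highest for Ndrg1, at 112 CPM. The causes were not tested.

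The genotype effect differed between the stages by edgeR's interaction test for 12 members. The interaction, on the log2 scale, was positive for Bnip3 (2.25), Pfkfb4 (1.69), Vegfa (1.42), P4ha1 (0.88) and Pdk1 (0.80). It was negative for Pfkp (-2.62), Eno1 (-1.37), Pgk1 (-1.13), Pkm (-1.06), Pfkl (-0.91), Slc16a1 (-0.81) and Pgam1 (-0.65).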

How the results depend on the processing

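Of the 84 calls of members over the 5 comparisons, 51 were kept under every alternative: 3 of 7 at E13.5, 9 of 19 at E16.5, 6 of 12 for the interaction, 21 of 24 for stage in controls and 12 of 22 for stage in stabilized epithelium. With the offsets implied by the deposited normalized table, 1 member was lower at E13.5, 3 had a negative interaction and 0 were lower at E16.5 than at E13.5 in stabilized epithelium; that last count was also 0 by edgeR when a genotype was fitted alone and with the replicate number as a block, the single member concerned being Slc16a1 with an unadjusted p of 0.00765 in the fit to all groups. Without E13.5 control library 3 and E16.5 stabilized library 1 together, a choice made after seeing the data, 7 members were higher at E13.5 and 11 had a negative interaction. Adding near-identical copies turned the Gapdh interaction to -0.98. Leaving out each library in turn gave 3 to 7 members higher and 0 to 3 lower at E13.5, 5 to 10 higher and 8 to 10 lower at E16.5, 4 to 5 positive and 4 to 12 negative interactions, 18 to 20 higher and 4 to 5 lower for stage in controls, and 15 to 21 higher and 0 to 1 lower for stage in stabilized epithelium. None was lower at E13.5 without stabilized library 1, and 7 were higher there without control library 3. Libraries with the same number correlated between -0.17 and 0.30 in their deviations from group means. Not every pair was above 0.1 and not every library correlated best with its own number, so the numbers were not taken as pairs, although shared litters cannot be told. With the number as a block, 5 members were higher and 2 lower at E13.5, 8 and 10 at E16.5, 5 and 9 for the interaction, 18 and 5 for stage in controls and 16 and 0 for stage in stabilized epithelium. With DESeq2, 159 of 160 member results kept their direction and side of the threshold. Depth limits Car9 and Adm at E13.5, where most libraries held no count. The causes of these changes were not tested.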

Other observations

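Over all tested genes, 9.58% were higher and 5.29% lower in stabilized buds at E13.5, and 22.2% were higher and 19.4% lower in stabilized epithelium at E16.5, the shares beside which the counts here stand. Of 16 enzymes of the tricarboxylic acid cycle, 1 was higher in stabilized buds at E13.5 and 12 were lower in stabilized epithelium at E16.5, with a median log2 fold change of -0.58 at E16.5, against 0.10 over all tested genes. Sdhd, a subunit of succinate dehydrogenase, averaged 43.7 ± 4.34 CPM in stabilized epithelium and 95.7 ± 4.05 CPM in control epithelium at E16.5 (log2 fold change -1.13 ± 0.148, edgeR adjusted p = 4.43e-06), and Mdh2, the mitochondrial malate dehydrogenase, averaged 148 ± 18.5 CPM in stabilized epithelium and 246 ± 26.7 CPM in control epithelium (log2 fold change -0.73 ± 0.121, edgeR adjusted p = 5.91e-05). Of 32 nuclear genes of the respiratory chain, 2 were higher at E13.5 and 17 were lower at E16.5, with a median of -0.48 at E16.5; Atp5b, the catalytic subunit of ATP synthase, had a log2 fold change of -0.76 ± 0.105, edgeR adjusted p = 8.70e-06. Of the 13 mitochondrially encoded genes, 2 were higher in stabilized epithelium at E16.5, with a positive log2 fold change for all 13 and a median of 0.70. They held 2.62 to 5.36% of the counts in stabilized and 2.21 to 3.88% in control epithelium at E16.5, and 1.79 to 2.45% in stabilized and 2.18 to 4.18% in control buds at E13.5.

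Serine and one-carbon genes, which branch from 3-phosphoglycerate, were called in opposite directions at the 2 stages. Of 8, 3 were higher in stabilized buds at E13.5 and 7 were lower at E16.5. Mthfd2, a mitochondrial folate enzyme of dividing cells, averaged 16.0 ± 1.07 CPM in stabilized buds and 8.43 ± 2.18 CPM in control buds at E13.5 (log2 fold change 0.93 ± 0.165, edgeR adjusted p = 0.000481) and 13.1 ± 1.62 CPM in stabilized epithelium and 54.8 ± 5.45 CPM in control epithelium at E16.5 (log2 fold change -2.06 ± 0.150, edgeR adjusted p = 2.36e-09). The interaction was -2.99 ± 0.223, edgeR adjusted p = 1.33e-08. Shmt1, the cytosolic serine hydroxymethyltransferase, had log2 fold changes of 1.29 ± 0.150, edgeR adjusted p = 4.33e-06 at E13.5 and -1.67 ± 0.134, edgeR adjusted p = 8.92e-09 at E16.5. In the pentose phosphate pathway 4 of 8 genes were lower at E16.5, among them Tkt, the transketolase (log2 fold change -0.97 ± 0.139, edgeR adjusted p = 1.25e-05).

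Of 31 further hypoxia targets, 6 were higher and 1 lower in stabilized buds at E13.5, 19.4% and 3.23% of the list, beside 9.58% and 5.29% of all tested genes. At E16.5, 10 were higher and 4 lower, 32.3% and 12.9% of the list, beside 22.2% and 19.4% of all tested genes. The median at E16.5 was 0.06, against 0.10 over all tested genes. Pygl, glycogen phosphorylase, averaged 46.7 ± 12.4 CPM in stabilized epithelium and 5.61 ± 0.865 CPM in control epithelium at E16.5 (log2 fold change 3.05 ± 0.207, edgeR adjusted p = 7.88e-10), and Mxi1, a Myc antagonist, averaged 109 ± 32.3 CPM in stabilized epithelium and 31.3 ± 3.67 CPM in control epithelium (log2 fold change 1.80 ± 0.213, edgeR adjusted p = 1.34e-06). Of 15 genes of the oxygen-sensing machinery, 1, Hif3a, was higher at E16.5 and 5 were lower. Hif3a averaged 42.6 ± 7.002 CPM in stabilized buds and 94.6 ± 29.0 CPM in control buds at E13.5 (log2 fold change -1.15 ± 0.191, edgeR adjusted p = 0.000241) and 65.3 ± 6.06 CPM in stabilized epithelium and 24.6 ± 3.51 CPM in control epithelium at E16.5 (log2 fold change 1.40 ± 0.172, edgeR adjusted p = 1.93e-06). The interaction was 2.56 ± 0.257, edgeR adjusted p = 4.34e-07. Of 17 tested genes for other isozymes and carriers, 6 were higher and 3 lower at E16.5; Slc2a13, a myo-inositol carrier, had log2 fold changes of 2.82 ± 0.310, edgeR adjusted p = 2.26e-06 at E13.5 and 1.83 ± 0.265, edgeR adjusted p = 1.41e-05 at E16.5. Of the remaining lists, the genotype comparison at E16.5 called 2 higher and 1 lower of 12 pyruvate dehydrogenase genes. It called 1 and 2 of 13 genes of gluconeogenesis and glycogen, and 2 and 5 of 11 transcription factors. The transcription factors had a median log2 fold change of -0.50 at E16.5, positive for 3 and negative for 8. Unlike most of that list, Mycn was higher (log2 fold change 1.38 ± 0.178, edgeR adjusted p = 3.48e-06).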
